A study of Mus musculus with 18 samples.

Results

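Del(i9-13) is a deletion in the mouse HoxB cluster, read from its name as lying between Hoxb9 and Hoxb13. Its effect at E10.5, a stage counted in days of embryonic development, was measured by RNA sequencing in 6 libraries with the deletion and 6 libraries without it, 12 of the 18 libraries of the series. The libraries were chosen by genotype and stage alone. Those with the deletion were 3 Del(i9-13) and 3 Del(i9-13):Hoxb13hd libraries, and those without it were 3 wild type and 3 Hoxb13hd libraries. Every mutant was homozygous, and all 12 libraries were ribo-depleted total RNA of embryos from which the head had been removed. Hoxb13hd is an allele of Hoxb13 by its name. The sources used here do not give what hd stands for, the breakpoints of the deletion, the strain or the number of embryos per library. The p-values therefore measure only how far these samples vary, which may be technical. The other 6 libraries, 3 Del(i9-13) and 3 wild type, were poly(A)-enriched RNA of E9.5 embryos and were used only to look up genes named at E10.5.

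Mammalian Hox genes stand in clusters, and their order along the chromosome follows the order in which they are activated in time and along the body axis. Hoxb13, at the posterior end of HoxB, is separated from Hoxb9 by a long stretch without other Hox genes. CTCF is a DNA-binding protein that, with cohesin, separates neighbouring chromatin domains, and the title of the series names CTCF-dependent insulation of Hoxb13. Group 13 Hox genes act at the end of the axis, where their products are known to slow and end elongation of the tail. The comparison of libraries with and without the deletion, within each hd state, asks which changes appear both next to the unmodified Hoxb13 allele and next to the hd allele.

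The sequences shown here belong to a neighbour gene and to the microRNA of the interval. Along chromosome 11 (mm10) the annotated order is Ttll6, the long noncoding RNA Gm11535, Hoxb13, the pseudogene Gm11539, the long noncoding RNA Gm53, Mir196a-1 and then Hoxb9 to Hoxb1. Ttll6 is the one neighbour outside HoxB and the interval that passed the test within 1 Mb. Its upstream sequence (RefSeq, GRCm38.p6, chr11:96133536-96133785, plus strand, the 250 bases before the start) holds a match, in capitals, to the 9-base CTCF core AGGGGGCGC, read on the opposite strand.
Ttll6 promoter: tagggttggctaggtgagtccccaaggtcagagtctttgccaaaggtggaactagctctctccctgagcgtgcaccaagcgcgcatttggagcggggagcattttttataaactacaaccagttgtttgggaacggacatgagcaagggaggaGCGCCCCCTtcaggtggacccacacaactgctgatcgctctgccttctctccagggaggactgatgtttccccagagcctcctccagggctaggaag
The motif was chosen after the sequence was seen. Searched on both strands, it is found in 364 of 32851 promoter windows of 250 bases (1.11%). Of the 7 genes called in the pooled effect that have a promoter sequence available, 1 holds it. That gene is Ttll6, whose sequence had been seen when the motif was chosen, so this count is not a test. The match is a description of these letters, not a shown binding site. Mir196a-1 encodes the mature miRNA shown first below, whose copy on chromosome 15 is identical, and the related gene in HoxA encodes the second. The capitals mark the shared seed, bases 2 to 8.
mmu-miR-196a-5p: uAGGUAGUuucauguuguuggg
mmu-miR-196b-5p: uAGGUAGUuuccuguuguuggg

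The libraries held 19.3 to 25.7 M counts each. Levels are in CPM, counts scaled to the size of the library with TMM factors, and a gene was called when its Benjamini-Hochberg adjusted p in edgeR's quasi-likelihood test, over 17202 genes tested, was under 0.05. High Xist counts were found in 4 of the 6 libraries with the deletion and 2 of the 6 without it. Del(i9-13) replicate 2 stood apart in its group 13 Hox genes: Hoxa13 was 0.317 CPM in it, against 4.37 to 5.38 CPM in the other 5 libraries with the deletion. The posterior Hox list outside HoxB had 18 tested genes, which include Evx1, Evx2, Hotair and the antisense transcript Hoxa11os. In Del(i9-13) replicate 2 their median level was 1.14 log2 units below their mean over the 12 libraries. It was between -0.24 and 0.43 in the other 11. Del(i9-13) replicate 1 stood apart in liver genes, with a median level 2.48 log2 units above their mean. Hoxb13, Hoxa13 and the posterior Hox and liver lists are given below with and without the library in question. Of the 14 head and brain markers, 8 were too low to test, among them Six3 and Six6 with 0 counts in all 12 libraries, while Lhx2, Emx2, En1, Dlx1, Dlx2 and Emx1 were tested.

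Gm53, a long noncoding RNA gene inside the interval (chromosome 11, 96251105 to 96264868, plus strand), had 0 counts in all 6 of them. It had 23.6, 18.7 and 15.6 CPM in wild type and 30.4, 50.9 and 55 CPM in Hoxb13hd. With 3 counts taken as the floor of each group, it was at least 453-fold lower in Del(i9-13) than in wild type and at least 1070-fold lower in Del(i9-13):Hoxb13hd than in Hoxb13hd (adjusted p = 0.00015 for the pooled effect). Mir196a-1, next to it, was too low to test. It had 2, 0 and 1 counts in Del(i9-13) against 7, 8 and 9 in wild type, and 0, 2 and 1 counts in Del(i9-13):Hoxb13hd against 6, 10 and 5 in Hoxb13hd. Over the pooled groups that is 6 against 45 counts, a depth-scaled ratio of 0.123 (95% interval 0.0428 to 0.289, counting error only). These are reads over the gene, not mature miRNA.

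Hoxb13 (chromosome 11, 96194316 to 96197447, plus strand) rose in both hd states. It had 10.8, 5.88 and 12.2 CPM in Del(i9-13), against 1.13, 0.127 and 0.0421 CPM in wild type. It had 11.3, 12 and 9.9 CPM in Del(i9-13):Hoxb13hd, against 0, 0.0473 and 0.106 CPM in Hoxb13hd. No library with the deletion overlapped one without it, and both groups with the deletion covered similar levels, so transcripts of the hd allele were still counted. The pooled log2 change was 5.40 ± 0.60 (SE, adjusted p = 0.0043), and the exact permutation test within hd states gave p = 0.005, the smallest that its 400 arrangements allow. The change was 4.49 ± 0.62 with the unmodified allele (adjusted p = 0.0074) and 7.67 ± 0.86 with hd (adjusted p = 0.0032). The difference between these changes did not pass (3.18 ± 1.41, adjusted p = 0.42). The groups without the deletion held 29 and 3 counts in wild type and Hoxb13hd, and 25 of the 29 came from wild type replicate 1. Without wild type replicate 1 the pooled change was 7.22 (adjusted p = 5.3e-07), and without Del(i9-13) replicate 2 it was 5.61 (adjusted p = 0.0071).

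**Figure D1:**
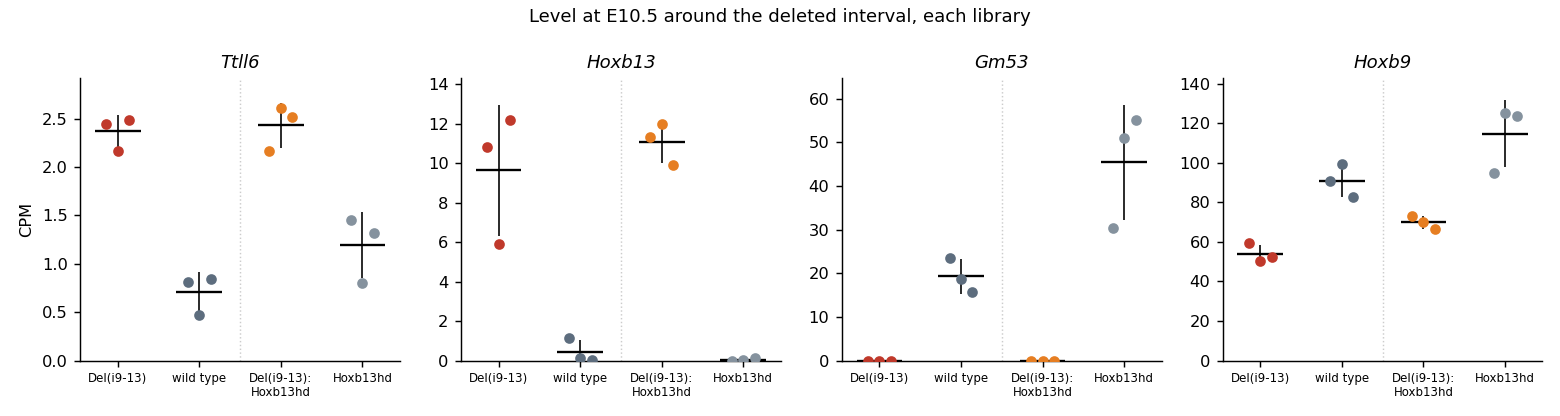
Level in CPM (linear axis from 0) of Ttll6, Hoxb13, Gm53 and Hoxb9 in each E10.5 library; points are libraries, horizontal bars group means and vertical bars ± SD (n = 3 each). Gm53 is at 0 in all 6 libraries with the deletion, Hoxb13 and Ttll6 are higher in them and Hoxb9 is lower, in both hd states.

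Per length, Hoxb13 in embryos with the deletion reached the range of its paralogs. In the deposited FPKM it averaged 3.32 ± 0.738 with the deletion and 0.0799 ± 0.146 without it (SD, n = 6 each). Hoxd13, which patterns the digits and hindgut end, averaged 3.50 ± 1.02 FPKM with the deletion and 3.63 ± 0.403 FPKM without it. Hoxa13, active in the distal limb and cloacal region, averaged 1.24 ± 0.571 and 1.51 ± 0.208 FPKM, and Hoxc13, known for hair and nail, 0.272 ± 0.172 and 0.260 ± 0.0941 FPKM, with and without the deletion. None of these 3 paralogs passed: the pooled log2 changes from the counts were -0.09 ± 0.18 for Hoxd13 (adjusted p = 0.89), -0.34 ± 0.39 for Hoxa13 (adjusted p = 0.81) and -0.11 ± 0.38 for Hoxc13 (adjusted p = 0.94). Without Del(i9-13) replicate 2 the change of Hoxa13 was -0.09 (adjusted p = 0.85). Of the 18 genes tested in the posterior Hox list outside HoxB, 0 were called by edgeR. The list includes Evx1, Evx2, Hotair and the antisense transcript Hoxa11os. Of the 18, 1 was lower at an unadjusted p under 0.05, against 5.35% of all genes, and it was Evx1, not a Hox gene. Their median log2 change was -0.22, and -0.09 without Del(i9-13) replicate 2.

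On the other side of the interval, Hoxb9, a trunk Hox gene of vertebral patterning (chromosome 11, 96271457 to 96276595, plus strand), fell. It had 59.3, 50.3 and 52.3 CPM in Del(i9-13), against 90.8, 99.5 and 82.7 CPM in wild type. It had 72.9, 70.2 and 66.6 CPM in Del(i9-13):Hoxb13hd, against 95.1, 125.3 and 123.8 CPM in Hoxb13hd. The highest library with the deletion was below the lowest without it. The log2 change was -0.73 ± 0.07 pooled (adjusted p = 0.00044), -0.75 ± 0.11 with the unmodified allele (adjusted p = 0.0043) and -0.71 ± 0.11 with hd (adjusted p = 0.0093), and the difference between the states was 0.04 ± 0.15 (adjusted p = 0.94). Its exact permutation p was 0.005, which follows from the lack of overlap. Mean levels were higher in both hd groups than in their counterparts without hd, and with the hd factor left out of the fit the call was lost (adjusted p = 0.053).

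No other HoxB gene was called. Of the 12 HoxB genes tested, which include the antisense transcripts Hoxb3os and Hoxb5os, 1 was called higher and 1 lower, against 0.0581% called higher and 0.0407% called lower among all genes tested. Hoxb8, next to Hoxb9 and known in mouse as a target cleaved under miR-196, had a log2 change of -0.06 ± 0.11 (adjusted p = 0.88, exact permutation p = 0.71). Hoxb7, the next gene, had 0.23 ± 0.09 (adjusted p = 0.37, exact permutation p = 0.06). Hoxb6 to Hoxb2, Hox genes of the trunk, neck and hindbrain, lay between -0.20 for Hoxb5 and -0.06 for Hoxb3. Hoxb1, a hindbrain gene at the far end of the cluster, had 4.17, 3.71 and 4.14 CPM in Del(i9-13) against 4.44, 5.51 and 5.81 CPM in wild type. It had 6.63, 6.28 and 6.43 CPM in Del(i9-13):Hoxb13hd against 11, 8.14 and 10.9 CPM in Hoxb13hd. Its libraries did not overlap within either hd state, and its log2 change of -0.52 ± 0.11 had an adjusted p of 0.099. The exact permutation p was 0.005, which follows from that lack of overlap. Hoxb3os had -0.50 ± 0.14 (adjusted p = 0.22). Whether the authors counted by strand is not given here, so the antisense values may include reads of the Hox genes they overlap.

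On the outer side of Hoxb13, Ttll6, which encodes a tubulin polyglutamylase of cilia (chromosome 11, 96133786 to 96165451, plus strand), rose. It lies 28.9 kb from Hoxb13. It had 2.44, 2.17 and 2.49 CPM in Del(i9-13), against 0.816, 0.466 and 0.842 CPM in wild type. It had 2.17, 2.61 and 2.52 CPM in Del(i9-13):Hoxb13hd, against 1.45, 0.805 and 1.32 CPM in Hoxb13hd. The 6 libraries with the deletion were all above the 6 others. The log2 change was 1.37 ± 0.20 (adjusted p = 0.014), 1.74 ± 0.27 with the unmodified allele (adjusted p = 0.0082) and 1.03 ± 0.25 with hd, which did not pass alone (adjusted p = 0.071). The difference between the states was -0.71 ± 0.37 (adjusted p = 0.47). The exact permutation p of the pooled effect was 0.005, which follows from the lack of overlap. The level was low per length, at 0.470 ± 0.0415 FPKM with the deletion and 0.181 ± 0.0841 FPKM without it (SD, n = 6 each). Gm11535, between Ttll6 and Hoxb13, was too low to test. It had 2, 2 and 3 counts in Del(i9-13), 3, 0 and 7 in Del(i9-13):Hoxb13hd and 0 in each of the 6 libraries without the deletion, which makes the pooled level at least 5.22-fold higher.

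Outside HoxB and the interval, Ttll6 was the one called gene of 7 tested within 200 kb of Hoxb13 (14.3%), of 14 within 500 kb (7.14%) and of 36 within 1 Mb (2.78%), against 0.0988% of all genes. The other 6 tested within 200 kb had log2 changes from -0.15 (Gm37179) to 0.04 (Snf8). Among them, Atp5g1, Ube2z and Snf8, the nearest on the Ttll6 side, encode a subunit of the mitochondrial ATP synthase, a ubiquitin-conjugating enzyme and a component of the ESCRT-II complex. The one neighbour tested beyond Hoxb1 within 500 kb, Skap1, an adaptor of T-cell signalling, had 0.11 ± 0.26 (adjusted p = 0.91).

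**Figure D2:**
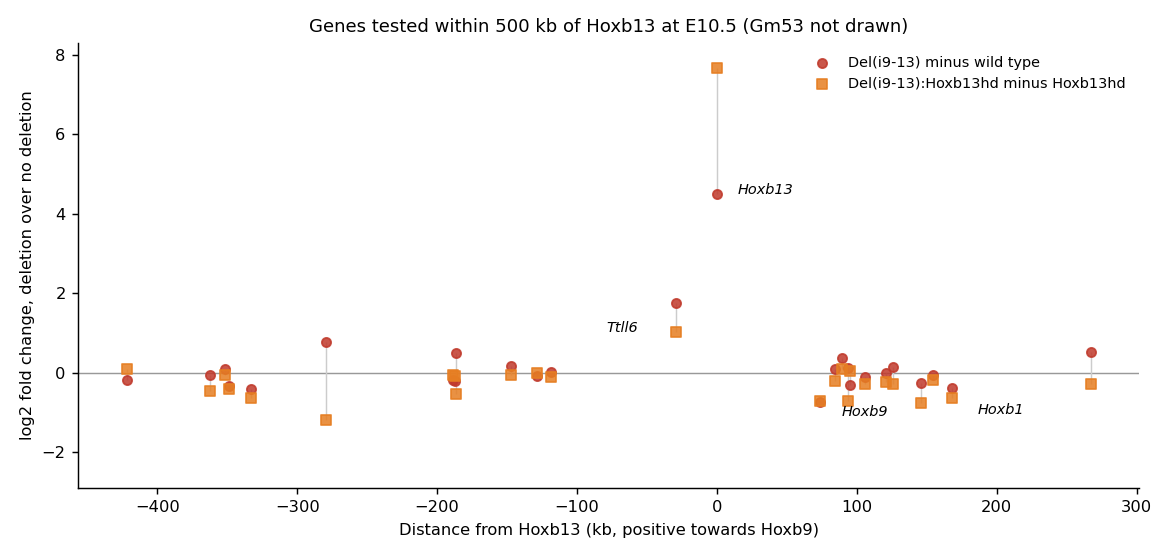
Log2 fold change of each tested gene within 500 kb of Hoxb13 except Gm53 (linear axes; distance in kb), with red circles for Del(i9-13) over wild type and orange squares for Del(i9-13):Hoxb13hd over Hoxb13hd; grey lines join both values of a gene. Hoxb13 and Ttll6 lie above 0 and Hoxb9 below 0 in both states.

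Over all 17202 genes, 17 were called in the pooled deletion effect (0.0988%), 10 higher (0.0581%) and 7 lower (0.0407%). At an unadjusted p under 0.05 there were 2015 genes (11.7%). Of the 17, 13 moved the same way in both hd states without overlap of the 3 libraries with the deletion and the 3 without it in either, 6 higher and 7 lower. That pattern was met by 307 of all genes (1.78%). Of the 17, 6 were on chromosome 11, with Gm53, Hoxb13, Hoxb9 and Ttll6 among them. The count was 88 without Del(i9-13) replicate 1, 26 without wild type replicate 1, 26 when replicate 3 of wild type was left out and 13 to 24 without any of the other 9 libraries, and all 17 genes were among the 88.

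Outside the locus, 4 named genes rose in the pooled effect, with libraries that did not overlap in either state. Lhx2, a LIM homeobox factor of forebrain, eye, limb bud and dorsal spinal cord (chromosome 2, 38339281 to 38369733), had 26.2, 28.7 and 25.2 CPM in Del(i9-13) against 19.7, 16.5 and 20.8 CPM in wild type. It had 26.5, 27.8 and 28.1 CPM in Del(i9-13):Hoxb13hd against 18.6, 17.9 and 21.3 CPM in Hoxb13hd. Its log2 change was 0.50 ± 0.07 (adjusted p = 0.0087), with 0.49 ± 0.10 without hd (adjusted p = 0.055) and 0.51 ± 0.10 with hd (adjusted p = 0.036), and the difference between the states was 0.02 ± 0.14 (adjusted p = 0.97). Lhx2 is in the head and brain list, of which 1 of 6 tested genes was called, against 0.0581% of all genes called higher. Emx2 had 0.46 ± 0.13 (adjusted p = 0.23), En1 had 0.32 ± 0.11 (adjusted p = 0.27), and Dlx1, Dlx2 and Emx1 lay between -0.12 and -0.11. The summed level of the list, mostly Lhx2, was 41.7 to 47.0 CPM with the deletion and 27.9 to 40.7 CPM without it. The part of residual head tissue in the Lhx2 difference was not tested.

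Nnt, the mitochondrial transhydrogenase that makes NADPH (chromosome 13, 119335448 to 119408997), had 82.2, 72.3 and 74.0 CPM in Del(i9-13) against 53.8, 53.1 and 61.7 CPM in wild type. It had 72.3, 73.2 and 71.8 CPM in Del(i9-13):Hoxb13hd against 54.9, 60.7 and 56.8 CPM in Hoxb13hd. The groups did not overlap, and the log2 change was 0.39 ± 0.05 (adjusted p = 0.0087). Nnt passed without hd (adjusted p = 0.017) and not with it (adjusted p = 0.054). Ppm1m, a protein phosphatase of the PP2C family (chromosome 9, 106194947 to 106199275), averaged 35.4 ± 4.22 CPM in Del(i9-13) and 26.2 ± 2.12 CPM in wild type, and 28.7 ± 2.58 CPM in Del(i9-13):Hoxb13hd and 18.6 ± 1.68 CPM in Hoxb13hd (SD, n = 3 each). Its ranges were apart within each hd state but not across them, and the log2 change was 0.53 ± 0.08 (adjusted p = 0.015). Ppm1m passed with hd (adjusted p = 0.021) and not without it (adjusted p = 0.14). Its call was lost without the hd factor, without Del(i9-13) replicate 3 and in both limma fits on log2(FPKM + 0.1). Cep112, a centrosomal protein gene (chromosome 11, 108425192 to 108860615), averaged 5.14 ± 0.236 CPM in Del(i9-13) and 3.14 ± 0.543 CPM in wild type, and 4.95 ± 0.313 CPM in Del(i9-13):Hoxb13hd and 2.78 ± 0.632 CPM in Hoxb13hd (SD, n = 3 each). Its log2 change was 0.77 ± 0.13 (adjusted p = 0.034), and it passed in neither state alone (adjusted p = 0.14 without hd and 0.053 with it). The call of Cep112 was lost when Xist was added to the fit as a measure of sex, and without any of 8 single libraries.

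Abca5, a lipid transporter of the ABC family (chromosome 11, 110269369 to 110337678, minus strand), fell in both states. It had 261, 142 and 202 counts in Del(i9-13), against 363, 347 and 387 counts in wild type. It had 207, 208 and 241 counts in Del(i9-13):Hoxb13hd, against 421, 316 and 323 counts in Hoxb13hd. Scaled to depth, it averaged 8.86 ± 1.53 CPM with the deletion and 16.5 ± 1.78 CPM without it (SD, n = 6 each), and no library with the deletion reached the lowest one without it. The log2 change was -0.90 ± 0.11 (adjusted p = 0.0029) pooled, and -0.90 ± 0.16 in each state, where it passed alone (adjusted p = 0.026 without hd and 0.024 with it). On the deposited FPKM the direction held and the call was lost (adjusted p up to 0.12 under limma).

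Noc2l (chromosome 4) and Sdad1 (chromosome 5), genes of nucleolar proteins (a histone acetylation inhibitor and, from its yeast counterpart, a factor of ribosomal subunit export), fell. Noc2l averaged 126.4 ± 5.34 CPM in Del(i9-13) and 157.2 ± 6.48 CPM in wild type, and 158.1 ± 3.13 CPM in Del(i9-13):Hoxb13hd and 208.7 ± 11.9 CPM in Hoxb13hd (SD, n = 3 each). Its log2 change was -0.36 ± 0.04 (adjusted p = 0.0029), and it passed in each state (adjusted p = 0.045 without hd and 0.012 with it). Without the hd factor in the fit its call was lost (adjusted p = 0.38). Sdad1 averaged 124.3 ± 6.39 CPM with the deletion and 146.5 ± 7.30 CPM without it (SD, n = 6 each), without overlap, with a log2 change of -0.24 ± 0.04 (adjusted p = 0.037), and passed in neither state alone (adjusted p = 0.068 without hd and 0.096 with it). The call of Sdad1 was lost without any of 10 single libraries.

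**Figure D3:**
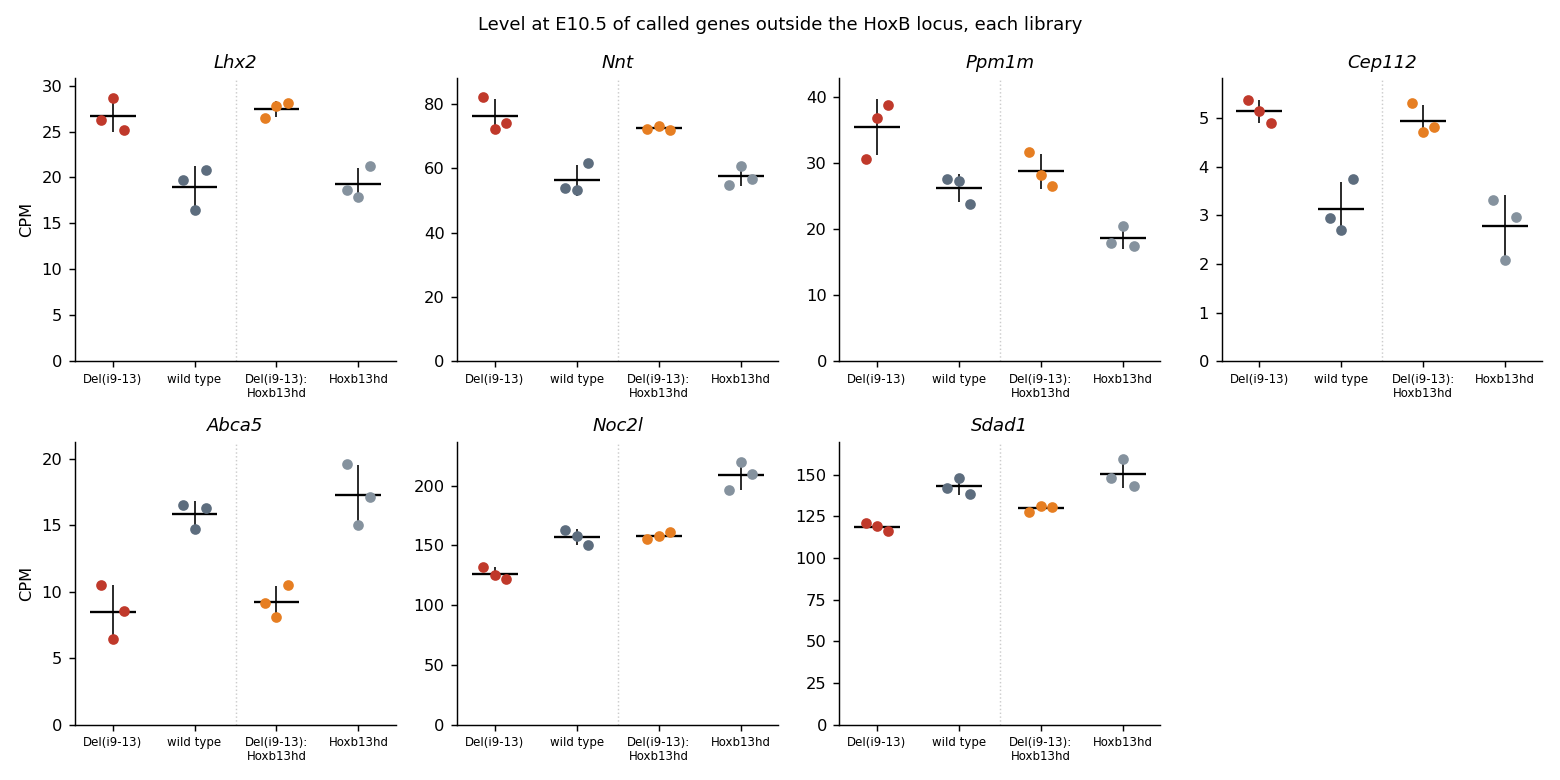
Level in CPM (linear axes from 0) of 7 genes called outside the HoxB locus in each E10.5 library; points are libraries, horizontal bars group means and vertical bars ± SD (n = 3 each). Lhx2, Nnt, Ppm1m and Cep112 are higher with the deletion and Abca5, Noc2l and Sdad1 lower, within both hd states.

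Another 5 called genes were pseudogenes by name or annotation, or genes without a name of their own. Reads of near-identical copies can be split between such genes, and whether this happened here was not tested. Gm5182 was lower in both states, with a sum of 32 counts with the deletion and 244 without it (log2 change -3.08 ± 0.44, adjusted p = 0.0089). The other 4 were high in 1 group only. Rps18-ps6 had 98.0, 285.1 and 127.5 CPM in the Del(i9-13) libraries, Glo1-ps 4.93 to 13.0 CPM and Gm10503 6.25 to 12.6 CPM there, and all 3 were at most 0.233 CPM in the 9 libraries of the other groups. Gm12666 had 3.21 to 4.2 CPM in Del(i9-13):Hoxb13hd and at most 0.0528 CPM in the others. The pooled value does not describe these 4 genes, although their interaction was not called (adjusted p from 0.17 to 1.0).

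The hd states share no library, so their deletion effects can be set side by side. With the unmodified allele 84 genes were called (0.488%), with hd 165 (0.959%), and the interaction called 90 (0.523%). In both states 19 genes were called, 22.6% of the 84 and 11.5% of the 165. Of these, 6 moved the same way, which were Gm53, Hoxb9, Noc2l, Abca5, Hoxb13 and Gm5182, and 13 moved in opposite directions. The pseudogenes among the 13 were Gm12312, Gm3650, Gm5909, Gm13328, Gm7658, Gm18234 and Pcna-ps2. The rest, Pop4, H4f16, Banp, Eif3j2, Gm4353 and Gchfr, are annotated as protein-coding. All but Banp were higher with the deletion in the comparison without hd and lower in that with hd. Effects had the same sign in 50.1% of all genes, in 38.1% of the 84 and in 59.4% of the 165. Leaving out 1 library moved the 84 to between 40 and 285, the 165 to between 36 and 412 and the 90 to between 40 and 174.

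**Figure D4:**
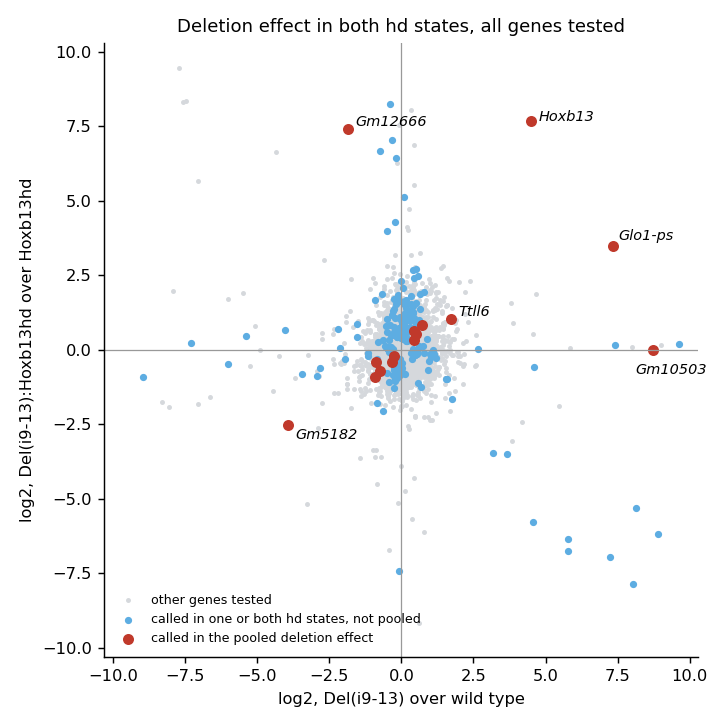
Log2 fold change of each tested gene with the deletion over without it, in Del(i9-13) over wild type (horizontal) and in Del(i9-13):Hoxb13hd over Hoxb13hd (vertical), with genes called in the pooled effect in red and genes called within a state but not pooled in blue; Gm53, Rps18-ps6 and Gm13394 lie outside the axes. Hoxb13 and Ttll6 lie in the upper right and Gm5182 in the lower left, and a group of blue points in the lower right moved in opposite directions.

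Chromosome 11 carried 6 of the 17 calls. Of its 1307 tested genes these were 0.459%, against 11 of 15895 elsewhere (0.0692%). The 6 include Gm53 in the interval and Hoxb13, Hoxb9 and Ttll6 beside it, so this share is not one of distant genes. Genes that moved the same way without overlap in both states were 40 on chromosome 11 (3.06%), against 1.68% elsewhere and 1.01% to 2.38% on every other autosome and the X chromosome. These 40 include Gm53, Hoxb13, Hoxb9 and Hoxb1, while the shares by distance below leave out the HoxB genes and the interval. Cep112 and Abca5 lie 12.2 and 14.1 Mb from Hoxb13, on the side of Hoxb1. A stretch 5 to 20 Mb from Hoxb13 on that side, chosen after the values were seen, held 203 tested genes, of which 2 were called and 11 (5.42%) moved without overlap. The share was 8.33% up to 1 Mb from Hoxb13 and 1.67% at 1 to 5 Mb, where 0 of 120 genes were called. It was 3.08% at 5 to 20 Mb on the other side and 1.89% more than 20 Mb away. Among the uncalled ones, Abca6, next to Abca5, averaged 0.642 ± 0.144 CPM with the deletion and 0.220 ± 0.0882 CPM without it (log2 1.5 ± 0.29, adjusted p = 0.084). Prkca, a protein kinase C, averaged 12.5 ± 1.16 and 8.85 ± 1.31 CPM (log2 0.50 ± 0.10, adjusted p = 0.095), with and without the deletion. Dcaf7, a substrate adaptor, had a log2 change of 0.24 ± 0.05 (adjusted p = 0.068), and Axin2, a negative regulator and target of Wnt signalling, of -0.22 ± 0.05 (adjusted p = 0.10). The deletion and the chromosome that carries it are inherited together, so the deletion and other differences along that chromosome cannot be told apart. The strain is not given, so differences in background between the groups on other chromosomes cannot be told apart from the deletion either.

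**Figure D5:**
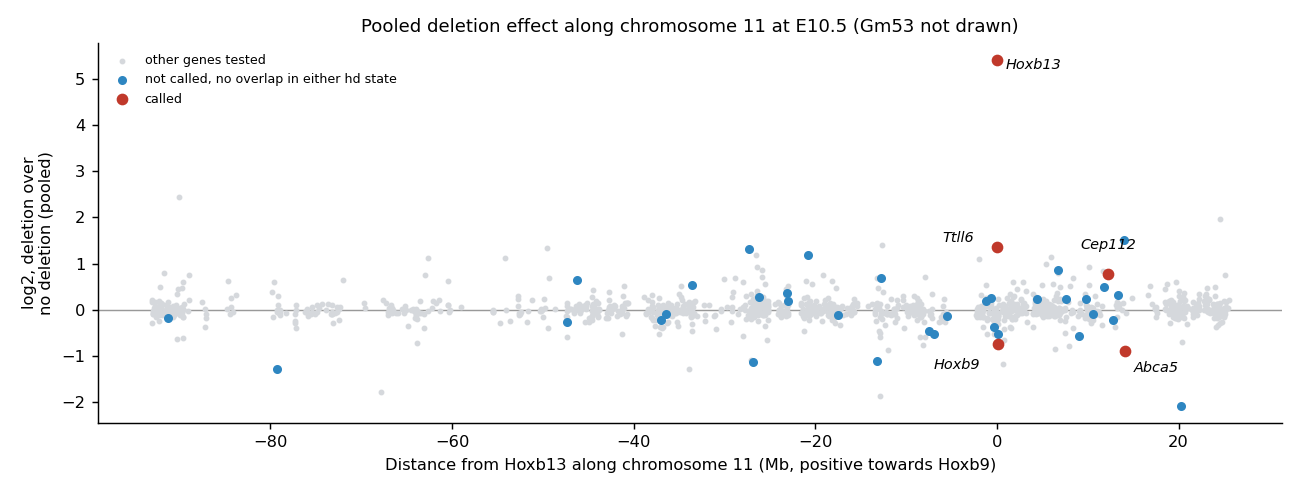
Pooled log2 fold change (deletion over no deletion) of the tested genes of chromosome 11 by distance from Hoxb13 in Mb (linear axes), with called genes in red and uncalled genes whose libraries did not overlap in either hd state in blue. Calls outside HoxB and its neighbour Ttll6 are Cep112 and Abca5, 12.2 and 14.1 Mb away.

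In gene lists of the tissues of a headless embryo, no member was called in the pooled effect with all 12 libraries beyond the HoxB genes, the interval and Lhx2. Tail bud and neuromesodermal progenitor genes had 0 of 26 called, and 13 at an unadjusted p under 0.05, all lower, against 5.35% of all genes. Their median log2 change was -0.34, with -0.17 in the comparison without hd and -0.59 in that with hd, beside -0.00 for all genes. Lin28b, an RNA-binding protein that blocks let-7 maturation, had the smallest p, at a log2 change of -0.27 ± 0.05 (adjusted p = 0.094). Lin28a had -0.51 ± 0.12 (adjusted p = 0.18). In the average of both hd states from the 4-group fit, Lin28a (adjusted p = 0.036) and Lin28b (adjusted p = 0.049) passed. In the comparison with hd, Lin28a (log2 -0.79, adjusted p = 0.017) and Sp8 (log2 -0.55, adjusted p = 0.045) passed. Nkx1-2, a factor of the progenitor zone, had -1.14 ± 0.29 (adjusted p = 0.20), and Cdx2, which drives axial elongation, -0.99 ± 0.38 (adjusted p = 0.36). T, the gene of brachyury, had -0.65 ± 0.31 (adjusted p = 0.46). Cdx2 averaged 3.94 CPM in Del(i9-13), 4.74 in wild type, 4.41 in Del(i9-13):Hoxb13hd and 13.9 in Hoxb13hd. T averaged 7.51, 9.07, 10.8 and 21.7 CPM in the same order. The median level of the list was 0.19, 0.54 and 0.62 log2 units above the mean of its genes in Hoxb13hd. It was -0.58 to 0.10 in the libraries of the other groups. The summed level of the list was 826.5 to 1018 CPM with the deletion and 925.1 to 1410 CPM without it, and the ranges overlapped. Wild type replicate 3 had the lowest median level of the 12 libraries in these genes (-0.58), and the median change without it was -0.41. Without wild type replicate 3, 5 of the 26 were called, all lower (Cdx4, Fgf17, Lin28b, Nkx1-2 and T), against 0.148% of all genes. Without Del(i9-13) replicate 1, 2 were called, both lower (Greb1 and Sall4), against 0.503% of all genes. None was called without any 1 of the other 10 libraries. Segmentation clock and presomitic mesoderm genes had 0 of 20 called and a median of -0.13. Of the 20, 4 had an unadjusted p under 0.05, all lower, against 5.35% of all genes. The change was negative in 17 and positive in 3.

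Some lists of other tissues also had medians away from 0. Liver bud and visceral endoderm genes had 0 of 17 called, 9 at an unadjusted p under 0.05, all higher, against 6.36% of all genes, and a median of 1.43. Their summed level was 346.0 to 2426 CPM with the deletion and 55.4 to 745.9 CPM without it. Without Del(i9-13) replicate 1, which held the highest level, the median was 1.02, with 7 at an unadjusted p under 0.05. Their median levels, in log2 units from their mean, were 2.48, 0.21 and -0.01 in Del(i9-13). They were 1.27, 0.19 and -0.28 in wild type, so these groups overlapped. They were 0.39, 0.37 and 0.27 in Del(i9-13):Hoxb13hd and -0.81, -2.42 and -1.25 in Hoxb13hd, lower than in every other group. Macrophage genes had 0 of 12 called, 6 unadjusted and higher, a median of 0.70 and sums of 19 to 43.4 CPM with the deletion and 7.10 to 28.5 CPM without it. Heart muscle genes had 0 of 14 called, 2 unadjusted and lower, a median of -0.80 and sums of 169.9 to 537.1 CPM with the deletion and 95.6 to 1940 CPM without it. Wild type replicate 3 stood apart in these genes, with a median level 2.78 log2 units above their mean, against -1.70 to 1.16 in the other 11 libraries. The heart median was -0.07 without that library and -0.21 without Hoxb13hd replicate 1. Muscle and myotome genes had 0 of 10 called, 4 unadjusted and higher, and a median of 0.40. Spinal cord and neuron genes had 0 of 21 called, 5 unadjusted and higher and 3 lower, with a median of 0.20. Among them, Sox1 (lower, adjusted p = 0.036) and Chl1 (higher, adjusted p = 0.022) passed in the average of both hd states. In the comparison with hd, Sox1 (lower, adjusted p = 0.047) and Stmn2 (higher, adjusted p = 0.046) passed. The medians without hd and with hd were 0.52 and 0.91 for macrophage, 0.28 and 0.48 for muscle and -0.05 and 0.36 for spinal cord genes. The medians of the limb bud, hindgut and surface epithelium, endothelium, red blood cell and cell cycle lists lay between -0.09 and 0.04. With 1 library left out, single members of these lists were called: Sox1, lower, without wild type replicate 1 and without Del(i9-13) replicate 1, and, higher, Myog without wild type replicate 1, Acta1 and Cdkn1c without Del(i9-13) replicate 1 and Serpina1a without wild type replicate 3. In bulk RNA, fewer cells of a type and less RNA per cell cannot be told apart. The part of tissue content in the gene differences above was not tested.

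At E9.5, 1 day earlier and in libraries of another type, the deletion was set against wild type in 3 libraries each, and 58 of 16041 genes were called (0.362%). Of the 13 genes that moved without overlap in both states at E10.5, all were tested at E9.5, 10 had the same direction and 3 were called. Hoxb13 averaged 42.0 ± 3.79 CPM in Del(i9-13) and 0.0927 ± 0.0523 CPM in wild type (log2 8.74 ± 0.21, adjusted p = 3.5e-07). Hoxb9 averaged 183.5 ± 6.10 CPM in Del(i9-13) and 246.8 ± 18.9 CPM in wild type (log2 -0.43 ± 0.06, adjusted p = 0.034). Gm53 averaged 0.0332 ± 0.0575 CPM in Del(i9-13) and 23.1 ± 8.59 CPM in wild type (adjusted p = 0.016). Ttll6 averaged 0.716 ± 0.195 CPM in Del(i9-13) and 0.587 ± 0.555 CPM in wild type at E9.5 (log2 0.32 ± 0.84, adjusted p = 0.91). Of the genes outside the locus, Ppm1m had 0.56 ± 0.11 (adjusted p = 0.088), Abca5 had -0.67 ± 0.32 (adjusted p = 0.48) and Nnt had 0.17 ± 0.09 (adjusted p = 0.51). Lhx2 had the opposite sign, with 7.03 ± 2.15 CPM in Del(i9-13) and 12.7 ± 1.44 CPM in wild type (log2 -0.85 ± 0.21, adjusted p = 0.20). Noc2l had 0.09 ± 0.10 (adjusted p = 0.76) and Sdad1 had 0.07 ± 0.06 (adjusted p = 0.67), also opposite in sign to E10.5.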

How the data were processed

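The series holds 18 RNA libraries of headless mouse embryos, and the 12 at E10.5 were analysed together. The deposited table held whole-number counts per Ensembl gene for 55141 genes, and a second deposited table held FPKM, computed by the authors. The submitters' processing notes name mm10, cutadapt 1.18, STAR 2.7.10a and Cufflinks 2.2.1, without saying which step each did. The libraries came from stranded kits, per the labels' protocols. Neither the counting program nor its strand setting is stated in the sources used here. Coordinates are mm10, from the deposited FPKM table, and 54890 genes of the tables matched GENCODE M21, which gave gene types.

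Counts were filtered with filterByExpr (minimum count 10, minimum total 15), scaled with TMM and fitted with edgeR 4.0.16 (robust quasi-likelihood) with deletion and hd as additive factors. Contrasts within each hd state and their interaction came from a fit of the 4 groups, and E9.5 was fitted alone. Log2 values are fitted changes with their standard error (SE). Hoxb13, Gm53, Hoxb9, Ttll6, Hoxb1, Hoxb8 and Hoxb7 were also tested by exact two-sided permutation of log2(CPM + 0.1) within hd states. Any gene without overlap in both states, in the same direction, gives the smallest possible p of that test, 0.005. Alternatives used DESeq2 1.42.0, limma 3.58.1 on log2(FPKM + 0.1) and log2(FPKM + 1), other scalings, filters and designs. Intervals and floors of 3 counts cover counting error only. The fits were tested on simulated counts.

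Genes were named by rule: the HoxB and group 13 genes, the interval, neighbours called within 500 kb, list members called, and up to 12 genes each way that were called, had a mean of at least 1 CPM and did not overlap in either hd state. Called genes with opposite signs in the states were named too, as were Gm11535 and other uncalled genes after their values were seen. Some genes that the rule names are not reported here. The comparison, lists and rule were chosen with earlier results of these data known.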

Additional observations from a re-analysis of the deposited data

Results flagged for a closer look

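In 46 groups of 6 libraries (23 genes, with and without the deletion), 5 held a library far from the other 5, where chance alone flags about 1 in 20. Hoxb13 was 5.88 CPM in Del(i9-13) replicate 2, against 9.90 to 12.2 CPM in the other libraries with the deletion, and Hoxa13 was 0.317 CPM in the same library, against 4.37 to 5.38 CPM. Hoxb13 was 1.13 CPM in wild type replicate 1, against 0 to 0.127 CPM in the other libraries without the deletion. Nnt was 82.2 CPM in Del(i9-13) replicate 1, against 71.8 to 74.0 CPM in the other libraries with the deletion, and Hoxb8 was 12.8 CPM in Del(i9-13):Hoxb13hd replicate 1, against 10.1 to 10.8 CPM.

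Gm11535, which no comparison tested, had 17 counts over the 6 libraries with the deletion and 0 over the 6 without it.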

How the results depend on the processing

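The pooled count of 17 was 51 without a filter on low counts, 7 without the hd factor, 86 for the average of both hd states in the 4-group fit, 200 with DESeq2, 6 with limma on log2(FPKM + 0.1), 8 with the same limma fit without a filter and 8 with an absolute log2 change of at least 1. It was 13 with limma on log2(FPKM + 1), 20 with Xist as a sex covariate, and 17 or 18 with the other scalings and the filter of 1 CPM. Leaving out 1 library gave 13 to 88. Of the calls 58.8% were higher, against 69.2% with limma on log2(FPKM + 1) and 37.5% with limma without a filter. Fitting only the groups compared gave 55 calls without hd, where the main count was 84, and 317 with hd, where it was 165. Leaving out 1 library gave 40 to 285 calls without hd, 36 to 412 with hd and 40 to 174 for the interaction. Counts without hd moved past 1.5 times without wild type replicates 2 (40) and 3 (52) and Del(i9-13) replicates 1 (285), 2 (48) and 3 (52). Counts with hd did so without wild type replicate 2 (267), Del(i9-13) replicates 1 (403) and 3 (95), Del(i9-13):Hoxb13hd replicates 1 (38), 2 (43) and 3 (51) and Hoxb13hd replicates 1 (412), 2 (36) and 3 (39). The interaction did so without wild type replicates 1 (47) and 3 (45), Del(i9-13) replicates 1 (174) and 3 (50), Del(i9-13):Hoxb13hd replicates 1 (40), 2 (43) and 3 (48) and Hoxb13hd replicate 3 (53). The called neighbour within 500 kb, Ttll6, was called under each count-based setting and 0 were called under the 3 limma fits on FPKM, in 2 of which Ttll6 did not pass the FPKM filter. The minimum log2 change of 1 left out Hoxb9, Lhx2, Nnt, Ppm1m, Cep112, Abca5, Noc2l and Sdad1. Under the other 24 alternatives, by adjusted p alone, Hoxb13, Gm53, Lhx2, Nnt and Gm5182 were called wherever they could be tested, Hoxb9 and Noc2l were lost without the hd factor and Abca5 in the 3 limma fits. Ppm1m was lost under 4, Cep112 under 13 and Sdad1 under 17. No named gene changed direction, and the cause of these moves was not tested. Replicate numbers share only a number: libraries with the same number correlated from -0.233 to 0.155, with 3 of 18 pairs over 0.1, and 3 of 12 libraries correlated best with their own number. With the replicate block 19 genes were called. Depth limits Mir196a-1 and Gm11535, and the spread between libraries the rest.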
